A study of Mus musculus with 6 samples.

Results

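Enteric neurons and enteric glia are the cells of the nervous system of the gut wall, and 8 marker genes of these cells were followed here in the mouse gastric corpus, the glandular body of the stomach that makes acid and pepsinogen. The genes were chosen by name: Sox10, Gfap and S100b for glia, Ret, Elavl4, Uchl1, Tubb3 and Snap25 for neurons. All 8 were found among the 18988 rows of the deposited table, and 5 of the 8 (Sox10, Ret, Uchl1, Tubb3 and Snap25) passed the filter on low values used for testing. RNA was sequenced from 3 control mice with the genotype Ras;APC FF (replicates 1 to 3) and 3 mice with PGC;Ras;APC FF (replicates 4 to 6), each library from 1 mouse. All mice had a C57BL/6 background, and both groups carried Ras;APC FF, so the groups differ by the PGC component. The labels give no age or sex and spell out neither PGC nor FF, nor a promoter, an induction or a time point. Values are FPKM, in which the fragments of a gene are divided by its length and by the size of the library.

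The enteric nervous system forms 2 nerve networks, 1 between the muscle layers and 1 under the mucosa, and derives from neural crest cells that migrate into the gut. SOX10 marks these crest cells and is kept by glia, whereas RET, the receptor for ligands of the GDNF family, is needed for the crest cells to enter the gut and stays on in many neurons. Enteric glia surround the neurons and carry GFAP and S100B. Several of the neuronal genes are not confined to neurons, since gut endocrine cells also use proteins of regulated secretion such as SNAP25. S100b is likewise known from adipocytes.

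Upstream sequence is printed for S100b, Gfap and Elavl4, which were picked by their expression values. S100b and Gfap are both glial, but S100b, unlike Gfap, overlapped between the groups and was highest in replicate 6. Elavl4 was the neuronal gene with the clearest gap between groups among those with a sequence. RefSeq start sites on GRCm38.p6, the assembly also named mm10, were available for 5 of the 8 genes (8 windows). Each line gives the 250 bases before a start site, 5′ to 3′ on the gene's strand, in windows that held 0 bases of an annotated GENCODE exon. Capitals mark the SOX core motifs ACAAAG and ACAATG and the CCAAT box, each searched on both strands, and the marked matches did not overlap.
S100b, chr10:76253586-76253835, plus strand: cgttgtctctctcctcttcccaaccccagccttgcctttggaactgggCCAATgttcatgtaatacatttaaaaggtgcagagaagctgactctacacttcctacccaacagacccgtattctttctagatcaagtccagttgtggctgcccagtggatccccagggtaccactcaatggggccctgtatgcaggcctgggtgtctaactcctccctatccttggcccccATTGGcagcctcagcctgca
Gfap, chr11:102897201-102897450, minus strand: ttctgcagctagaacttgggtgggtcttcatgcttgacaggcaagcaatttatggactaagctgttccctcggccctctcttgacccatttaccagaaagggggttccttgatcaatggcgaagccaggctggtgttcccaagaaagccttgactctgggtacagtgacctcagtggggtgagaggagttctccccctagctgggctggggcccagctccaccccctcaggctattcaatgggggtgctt
Elavl4, the outermost of its 4 start sites, chr4:110351912-110352161, minus strand: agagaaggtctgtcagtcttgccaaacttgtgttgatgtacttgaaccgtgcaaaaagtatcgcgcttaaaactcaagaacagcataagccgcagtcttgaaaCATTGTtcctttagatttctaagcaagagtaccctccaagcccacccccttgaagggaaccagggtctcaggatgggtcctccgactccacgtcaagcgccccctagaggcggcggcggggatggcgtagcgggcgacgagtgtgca
The S100b window held 2 CCAAT boxes and the Elavl4 window 1 ACAATG, while the Gfap window held 0 of the 3 motifs. Of the 8 windows, 0 held ACAAAG, 2 held ACAATG (Elavl4 and Tubb3) and 5 held CCAAT (in Elavl4, S100b and Tubb3). Among the 4 Elavl4 windows, 2 overlap and share a CCAAT box, so the 5 windows are not all separate sites. Of all 32851 windows of this length, 16.5% held ACAAAG, 10.7% ACAATG and 33.8% CCAAT. These are matches of letters only, and their part in the expression values was not tested.

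Between 11465 and 12407 genes reached 1 FPKM per library, and the number of reads behind the values is unknown. The corpus genes Atp4a and Atp4b, of the proton pump, and Pgc, pepsinogen C, were among the strongly expressed genes in every library. They were lowest in replicate 6, with Atp4b at 723.3 FPKM against 3131 to 4614 in the other 5. Pgc, Clps and Pla2g1b together held 34.9% to 48.1% of summed FPKM in controls, 32.7% and 31.7% in replicates 4 and 5, and 6.36% in replicate 6. On the deposited scale the middle of the table was itself shifted, with a median log2 change of 0.26 over tested genes. With median-of-ratios scaling it was -0.0071, with quantile normalization -0.017, and it was -0.052 when libraries were scaled to a total that leaves out the 50 most abundant genes. Control replicate 3 had the Y-linked genes Ddx3y and Eif2s3y at 6.09 and 13.15 FPKM and Xist at 0, whereas the other 5 libraries had Xist above 0 and Eif2s3y at 0. Sex thus differed within the controls, and its part in the results below was not tested. Results are given with and without replicates 3 and 6 where these change a call.

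The glial and neuronal genes Sox10, Gfap, Elavl4 and Snap25 were lower in every PGC;Ras;APC FF library than in every control, at 41.0% to 51.2% of their control mean. Uchl1 and Tubb3 stood at 76.5% and 80.7% with overlapping groups. Ret and S100b had higher means in PGC;Ras;APC FF, each with overlapping groups, and the S100b mean rested on 1 library. With limma on log2(FPKM + 1) and Benjamini-Hochberg adjustment over all 11857 tested genes, 0 of the 5 tested genes passed the threshold of 0.05, and 2 (Sox10 and Snap25) had an unadjusted p under 0.05. Of all tested genes 0.152% passed (13 or 0.11% higher and 5 or 0.0422% lower), and 35.4% had an unadjusted p under 0.05. The calls split into 9 higher and 10 lower with median-of-ratios scaling, 10 and 13 with quantile normalization, and 12 and 10 with the total that leaves out the top genes. Without a filter 0 of the 8 genes passed, where 0.0158% of all rows were called higher and 0.0316% lower. Groups that do not overlap on the lower side occurred in 5.65% of all 18988 rows, and on the higher side in 31.9% (5.47% and 42.7% of tested rows, 9.12% and 27.1% of rows with a control mean of 0.3 to 2 FPKM). After median-of-ratios scaling and with the total that leaves out the top genes, Uchl1 joined the 4 separated genes, but 15.3% and 16.7% of all rows then lay apart on the lower side. Leaving out 1 library cannot make groups that are apart overlap, so the 4 genes necessarily stayed apart. The share of all rows apart on the lower side was 8.23%, 7.14%, 7.61%, 8.26%, 7.56% and 7.46% without replicates 1 to 6. Sox10 reached the filter through the controls alone, so its groups could not overlap. In bulk tissue, fewer cells of a type and less RNA per cell cannot be told apart.

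**Figure D1:**
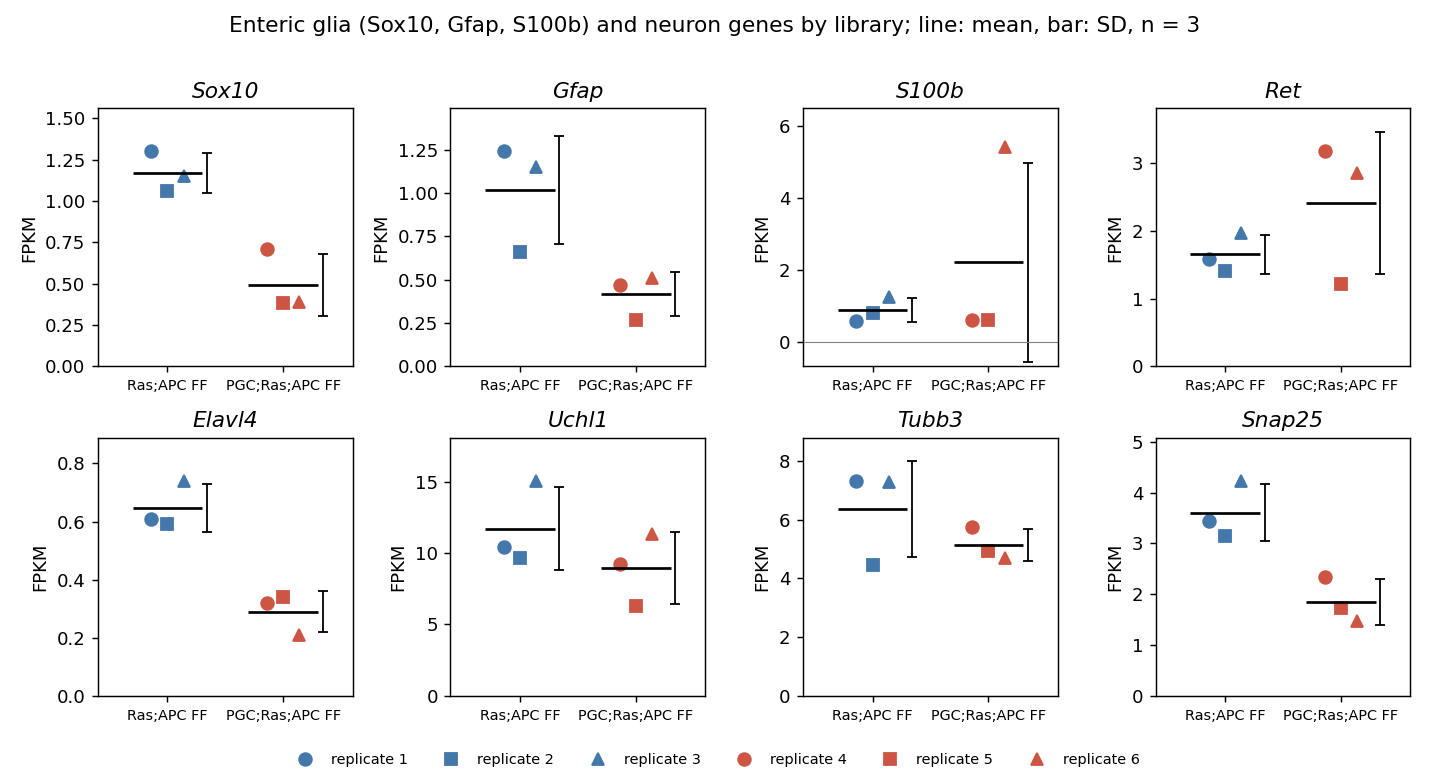
FPKM of the 8 genes in each library (points), with the group mean (line) and SD (bar, n = 3 each); each panel has its own linear axis, and blue marks Ras;APC FF and red PGC;Ras;APC FF. The red points of Sox10, Gfap, Elavl4 and Snap25 all lie under the blue ones, Ret splits with replicate 5 low, and S100b is set apart by replicate 6 at 5.42 FPKM.

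Among the glial genes, Sox10, the transcription factor of the neural crest and of glia (chromosome 15, 79154908 to 79165240, minus strand), was at 1.30, 1.06 and 1.15 FPKM in the controls, against 0.71, 0.38 and 0.39 in replicates 4 to 6. Replicate 4 was the highest of the PGC;Ras;APC FF libraries and still lay below the lowest control. The means were 1.17 ± 0.121 and 0.493 ± 0.188 FPKM (SD, n = 3 each), a log2 change of -0.55 ± 0.14 (SE) with a limma adjusted p of 0.085. Gfap, the intermediate filament of glia (chromosome 11, 102887336 to 102900912, minus strand), was at 1.24, 0.66 and 1.15 FPKM in the controls, against 0.47, 0.27 and 0.51 in replicates 4 to 6. Control replicate 2 was the low control and lay closest to replicate 6. The Gfap means were 1.02 ± 0.312 and 0.417 ± 0.129 FPKM (SD, n = 3 each). It did not reach the filter, and without a filter its log2 change was -0.50 ± 0.14 (limma adjusted p = 0.14). These levels are near or below 1 FPKM, and the number of reads behind them is unknown.

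S100b, a calcium-binding protein of glia (chromosome 10, 76253853 to 76261159, plus strand), did not follow them. It was at 0.59, 0.80 and 1.24 FPKM in controls, at 0.61 in each of replicates 4 and 5, and at 5.42 in replicate 6. Replicates 4 and 5 were within the control range, and replicate 6 was above every other library. The means were 0.877 ± 0.332 and 2.21 ± 2.78 FPKM (SD, n = 3 each). Without a filter its log2 change was 0.46 ± 0.55 (limma adjusted p = 0.60), and leaving out replicate 6 turned the difference to -0.21. In replicate 6 Sox10 was at 0.39 FPKM and Gfap at 0.51, both below their controls. Of the 7 adipose genes, Adipoq, Plin1, Lep and Retn were listed at 0 there and Cfd was at 0.15 FPKM, whereas Fabp4 was at 22.07 and Cidec at 9.64 FPKM. The list summed to 31.9 FPKM in replicate 6, against 59.3 to 122.9 in the other libraries. Of the 3 melanocyte genes, Tyr and Dct were at 0.06 and 0.01 FPKM in replicate 6, whereas Pmel was at 1.6, its highest level, against 0.56 to 1.1 in the other 5. That list summed to 0.61 to 0.83 FPKM in controls and 1.04 to 1.67 in replicates 4 to 6. The part of these cell types in the S100b value was not tested. Dip2a, whose gene body overlaps that of S100b on the other strand without sharing exon bases, was at 5.41 FPKM against 5.01 to 7.01 in the other libraries.

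Ret (chromosome 6, 118151745 to 118197718, minus strand) was at 1.58, 1.41 and 1.96 FPKM in the controls, against 3.17, 1.21 and 2.85 in replicates 4 to 6. Replicates 4 and 6 lay above every control and replicate 5 below every control. The means were 1.65 ± 0.282 and 2.41 ± 1.05 FPKM (SD, n = 3 each), with a log2 change of 0.32 ± 0.24 (SE, limma adjusted p = 0.352). That change is 0.056 above the median over tested genes. Without replicate 5 it was 0.60 (limma adjusted p = 0.0607), and without replicate 4 it was 0.14. It was 0.073 to 0.11 under the 3 other scalings. Other genes also had replicate 5 as the lowest of the 3 PGC;Ras;APC FF libraries, as values named here after they were seen: Ngfr, the low-affinity neurotrophin receptor, was at 5.46, 1.21 and 4.15 FPKM in replicates 4 to 6, and Phox2a, a transcription factor of autonomic neurons, at 1.13, 0.22 and 0.71. Unlike Ret, Ngfr in replicate 5 lay above every control. Over all genes with a control mean of at least 0.1 FPKM, the median was 114%, 111% and 142% of the control mean in replicates 4 to 6. Replicate 5 was thus the lowest of the 3 there too, and the share of genes with this order was not computed.

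Of the neuronal genes, Elavl4, an RNA-binding protein of the Hu family (chromosome 4, 110203722 to 110351909, minus strand), had the lowest levels, at 0.61, 0.59 and 0.74 FPKM among controls, against 0.32, 0.34 and 0.21 in replicates 4 to 6. The groups were apart by more than the range within either group. The means were 0.647 ± 0.0814 and 0.29 ± 0.070 FPKM (SD, n = 3 each). Elavl4 did not reach the filter, and without a filter its log2 change was -0.35 ± 0.064 (limma adjusted p = 0.137). Snap25, a SNARE protein of vesicle fusion (chromosome 2, 136713453 to 136782428, plus strand), was at 3.44, 3.14 and 4.23 FPKM in the controls, against 2.34, 1.73 and 1.47 in replicates 4 to 6. Control replicate 3 was highest and replicate 6 lowest. The means were 3.60 ± 0.563 and 1.85 ± 0.447 FPKM (SD, n = 3 each), a log2 change of -0.70 ± 0.16 (SE, limma adjusted p = 0.085). Leaving out replicate 6 made Snap25 pass, with a log2 change of -0.60 (limma adjusted p = 0.0476), in a fit that called 0.961% of tested genes lower and 8.11% higher. With replicate 6 left out and no filter, the same change did not pass (limma adjusted p = 0.123). With the filter it did not pass without any other library (adjusted p = 0.0666 to 0.245).

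Uchl1, a neuronal ubiquitin hydrolase also called PGP9.5 (chromosome 5, 66676091 to 66687234, plus strand), was the most abundant of the 8. It was at 10.43, 9.64 and 15.06 FPKM in the controls, against 9.21, 6.32 and 11.33 in replicates 4 to 6. Replicate 6 lay above the 2 lower controls, and replicate 5 was lowest. The means were 11.7 ± 2.93 and 8.95 ± 2.51 FPKM (SD, n = 3 each), with a log2 change of -0.36 ± 0.23 (limma adjusted p = 0.276). An antisense gene, Uchl1os, covers 18.1% of the annotated Uchl1 exon bases, and strandedness of the libraries is not stated in the labels, so reads of the pair cannot be told apart. Tubb3, the neuronal beta-tubulin (chromosome 8, 123411424 to 123422015, plus strand), was at 7.31, 4.47 and 7.29 FPKM in the controls, against 5.74, 4.93 and 4.71 in replicates 4 to 6. Control replicate 2 was the lowest of the 6 libraries. The means were 6.36 ± 1.63 and 5.13 ± 0.542 FPKM (SD, n = 3 each), with a log2 change of -0.24 ± 0.19 (limma adjusted p = 0.361). Ordered by their FPKM in controls, Uchl1 was followed by Tubb3, Snap25, Ret, Sox10, Gfap, S100b and Elavl4. Down to Sox10 the control ranges of neighbours in this order were apart, whereas those of Sox10 and Gfap, Gfap and S100b, and S100b and Elavl4 overlapped.

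Other genes of neurons, glia and their synapses were split between lower, overlapping and higher groups. Across 5 wider lists (75 genes, of which 41 were tested), 35 genes were lower in every PGC;Ras;APC FF library than in every control, 7 were higher in every one, and 33 overlapped. These counts stand against 5.65% of all rows apart on the lower side and 31.9% on the higher side. The same 2 shares are the background for the counts of genes apart in each list below. Of the 41 tested genes 0 passed limma over all genes and 19 had an unadjusted p under 0.05, as did 35.4% of all tested genes. The same 35.4% is the background for the unadjusted counts of each list below. Their median log2 change was -0.25, against 0.26 for all tested genes. The count of 35 was 38 without replicate 6 and 36 without replicate 3, where leaving out a library cannot lower it. It was 41 and 45 under the 2 scalings that raise the background to 15.3% and 16.7%. Gfra3 is in 2 of the lists and was counted once. Syt1, Gfra1, Gfra3, Lgi4 and Edn3 reached the filter through the controls alone, and Stx1a and Nrg1 through PGC;Ras;APC FF alone. The groups of these genes could not overlap, and all but Lgi4 are among the 19. The 19 thus include genes whose gap follows from the filter. The share of all tested genes that entered in this way was not computed.

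Genes of glia and the Schwann cell lineage (16 genes, 9 tested) were split. The groups were apart on the lower side in 9 of them. Foxd3, a neural crest transcription factor, and Cdh19, a cadherin of the glial lineage, belonged to these 9, at 34.5% and 48.4% of their control means. In 2 genes every such library was above every control: Sox2, a stem cell factor also used by gastric progenitors, at 3.86 ± 1.34 and 11.2 ± 7.30 FPKM (SD, n = 3 each), and Ngfr, at 0.823 ± 0.244 and 3.61 ± 2.18 FPKM. Erbb3, the neuregulin receptor of glia that epithelium also makes, was at 16.9 ± 4.77 and 16.8 ± 4.18 FPKM, and Cryab, a small heat shock protein, at 38.9 ± 14.4 and 23.4 ± 5.10. None of the 9 tested genes passed limma over all genes, 5 had an unadjusted p under 0.05, and their median log2 change was -0.00093. Of these 9 tested genes, Lgi4 and Gfra3 reached the filter through the controls alone, so their groups could not overlap. Without replicate 6, Art3 passed on the lower side (log2 change -0.79, limma adjusted p = 0.0397). That fit called 0.961% of tested genes lower and 8.11% higher. Without replicate 5, Ngfr passed on the higher side (log2 change 1.67, limma adjusted p = 0.00416), in a fit that called 4.55% of tested genes higher and 0.388% lower.

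Neuronal identity genes (15 genes, 6 tested) had the same direction throughout the tested part. All 6 tested changes were negative (median -0.59), while 19.4% of all tested genes had a negative change, and 0 passed limma over all genes with 3 at an unadjusted p under 0.05. Stmn2, a microtubule regulator of growing axons, was at 3.56, 3.43 and 4.87 FPKM in the controls, against 2.51, 1.61 and 2.37 in replicates 4 to 6. Prph, the intermediate filament of peripheral neurons, was at 3.14, 3.29 and 4.57 and at 2.57, 1.66 and 1.70 FPKM. In both genes control replicate 3 was highest, and the groups did not overlap. Hand2, a neural crest and mesenchymal factor, was at 59.7% of its control mean. The limma adjusted p was 0.0857 for Stmn2, 0.0867 for Prph and 0.101 for Hand2. In all, 9 of the 15 were apart on the lower side and 0 on the higher side.

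Genes of neurotransmitters (12 genes, 5 tested) included Cartpt, the precursor of a neuropeptide, at 6.91, 6.91 and 12.51 FPKM in the controls, against 2.89, 1.76 and 5.78 in replicates 4 to 6. Npy, another neuropeptide, was at 9.68, 7.45 and 11 and at 14.26, 7.29 and 16.91 FPKM, with replicate 5 the lowest library as for Ret. Of the 12 genes 5 were apart on the lower side and 0 on the higher side, and 0 of the 5 tested passed limma over all genes (3 at an unadjusted p under 0.05, median log2 change -0.66). Without replicate 6, 3 of the 5 passed on the lower side: Cartpt (log2 change -1.53, limma adjusted p = 0.0279), Vip (-0.87, 0.0457) and Gal (-1.01, 0.0352). That fit called 0.961% of tested genes lower and 8.11% higher.

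Among 18 genes of the presynaptic release machinery (12 tested), some genes were lower like Snap25 and others were not. Syt1, the calcium sensor of release, was at 1.38 ± 0.151 FPKM in controls, and PGC;Ras;APC FF stood at 46.6% of that (0.643 ± 0.143; SD, n = 3 each; limma adjusted p = 0.085). Cplx1, a complexin named after its values were seen, was at 45.6% of its control mean. Stx1a, a syntaxin that pairs with SNAP25, was at 0.77, 0.72 and 0.95 FPKM in the controls, against 2.27, 1.09 and 3.20 in replicates 4 to 6, above every control. Its log2 change was 0.76 ± 0.24 (limma adjusted p = 0.0954). Stx1a passed without replicate 5 (log2 change 1.03, limma adjusted p = 0.0231), in a fit that called 4.55% of tested genes higher and 0.388% lower. Syt1 reached the filter through the controls alone and Stx1a through PGC;Ras;APC FF alone, so the groups of neither could overlap. Vamp2, the vesicle SNARE, was at 24.8 ± 1.29 and 27.6 ± 4.45 FPKM and Nsf, the ATPase that takes SNARE complexes apart, at 11.6 ± 0.661 and 16.1 ± 2.5. In 9 of the 18 the groups were apart on the lower side and in 2 (Stx1a and Nsf) on the higher side. None of the 12 tested passed limma over all genes, 4 had an unadjusted p under 0.05 (against 35.4% of all tested genes), and the median log2 change was -0.14.

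The GDNF-RET and endothelin-3 pathways (15 genes, 10 tested) join ligands from muscle and mesenchyme to receptors on the neural crest lineage. Of the ligands, Gdnf was at 0.437 ± 0.185 and 0.317 ± 0.0451 FPKM and Nrtn, neurturin, at 16.9 ± 6.14 and 14.5 ± 2.12 (SD, n = 3 each). Of the co-receptors, Gfra1, which pairs with GDNF, was at 1.22, 1.29 and 1.39 FPKM in the controls, against 0.84, 0.90 and 0.75 in replicates 4 to 6. Gfra2, which pairs with neurturin, was at 1.37 ± 0.252 and 0.91 ± 0.322 FPKM. Thus Gfra1 was lower in all 3 libraries, while Ret was higher in replicates 4 and 6. Edn3, the ligand of EDNRB, was at 1.81 ± 0.165 and 0.60 ± 0.207 FPKM (log2 change -0.82 ± 0.14, limma adjusted p = 0.085), and Ednrb itself at 2.02 ± 0.289 and 1.97 ± 0.245. Nrg1, the neuregulin ligand of ERBB3, was at 0.46, 0.39 and 0.47 FPKM in the controls, against 1.76, 1.54 and 3.12 in replicates 4 to 6 (log2 change 1.09 ± 0.19, limma adjusted p = 0.085). Edn3 and Nrg1 were named after their values were seen. Gfra1 and Edn3 reached the filter through the controls alone and Nrg1 through PGC;Ras;APC FF alone, so the groups of these 3 genes could not overlap. Edn3 and Nrg1 passed without replicate 6 (limma adjusted p = 0.0268 and 0.0196) and without replicate 5 (0.0383 and 0.0199). Those fits called 0.961% and 0.388% of tested genes lower and 8.11% and 4.55% higher. With all libraries 0 of the 10 passed, 5 had an unadjusted p under 0.05, and the groups of 4 of the 15 were apart on the lower side and of 3 on the higher side.

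**Figure D2:**
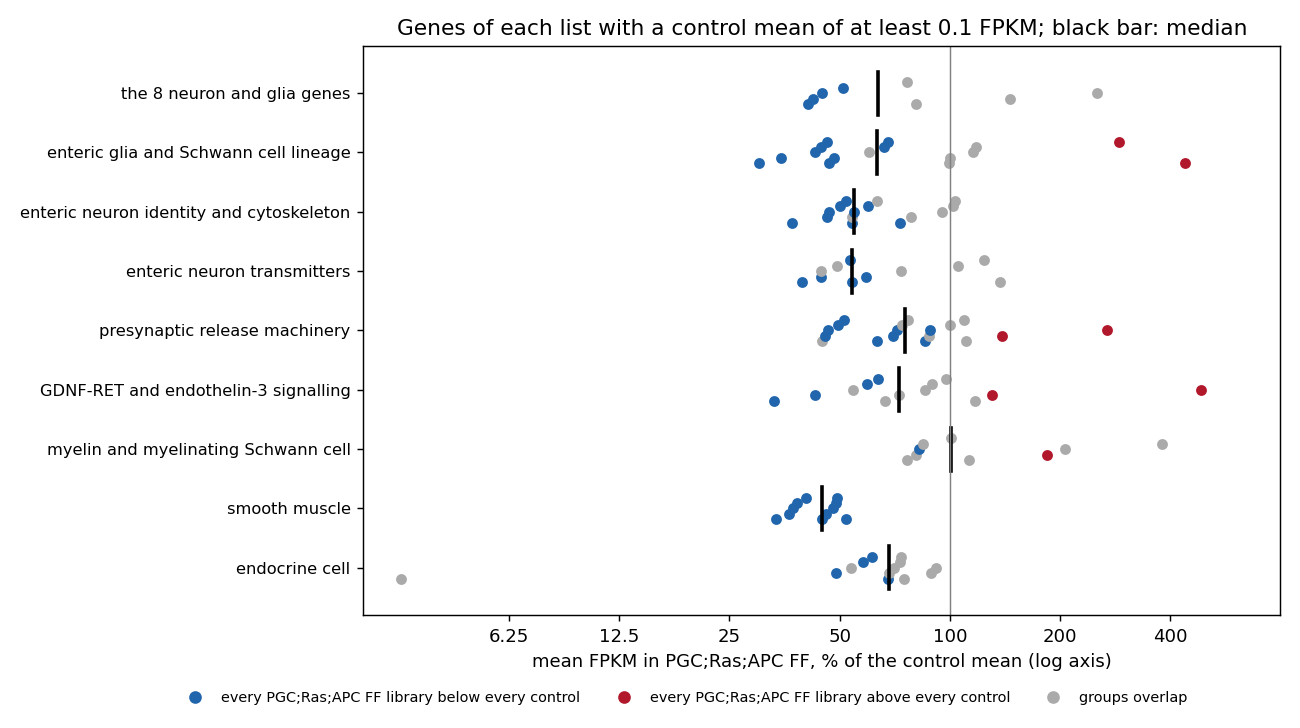
Mean FPKM in PGC;Ras;APC FF as a percentage of the control mean (log axis) for each gene of a list with a control mean of at least 0.1 FPKM; blue and red mark genes whose groups do not overlap on the lower and higher side, and black bars are medians. The medians of the neuronal identity, transmitter and smooth muscle lists are 54.7%, 54.0% and 44.8%, and the presynaptic and GDNF-RET lists hold genes on both sides of 100%.

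For 6 of the 8 genes, all but Ret and S100b, a ratio was taken to a relative of the same family that is used outside the nervous system. The log2 ratio of Snap25 to Snap23, the SNAP protein of non-neuronal cells, was -1.97 ± 0.15 in controls, against -3.06 ± 0.329 with PGC (SD, n = 3 each). Snap23 itself was at 14.2 ± 2.68 and 15.1 ± 0.965 FPKM. Elavl4 against Elavl1, the ubiquitous Hu protein, went from -3.13 ± 0.144 to -5.01 ± 0.756, with Elavl1 at 5.65 ± 0.439 and 9.35 ± 2.59 FPKM. Tubb3 against Tubb5, a widely used beta-tubulin, went from -3.38 ± 0.393 to -4.78 ± 0.55, with Tubb5 at 64.6 ± 5.21 and 145.6 ± 48.2 FPKM. Sox10 against Sox9, which gastric epithelium also expresses, and Gfap against Vim, the mesenchymal filament, differed between groups by -2.09 and -1.21 on the log2 scale. In these 5 of 6 pairs the groups did not overlap, with lower ratios in PGC;Ras;APC FF. The exact two-sided permutation p was 0.1 for each, the smallest that 3 against 3 libraries allow, and 0.12 after adjustment over the 6 pairs. Uchl1 against Uchl3 overlapped (difference -0.49, exact permutation p = 0.2). Sox10, Gfap, Elavl4 and Snap25 were apart on the lower side by themselves, so their ratios partly restate those values. Elavl1 and Tubb5 were apart on the higher side, as were 31.9% of all rows, while Tubb3 by itself overlapped. Tubb5 did not pass with all libraries (limma adjusted p = 0.085) but passed without replicate 6 (log2 change 0.86, limma adjusted p = 0.0203). In the fit without replicate 6, 8.11% of tested genes were called higher. The share of other gene pairs whose ratios lie apart was not computed.

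**Figure D3:**
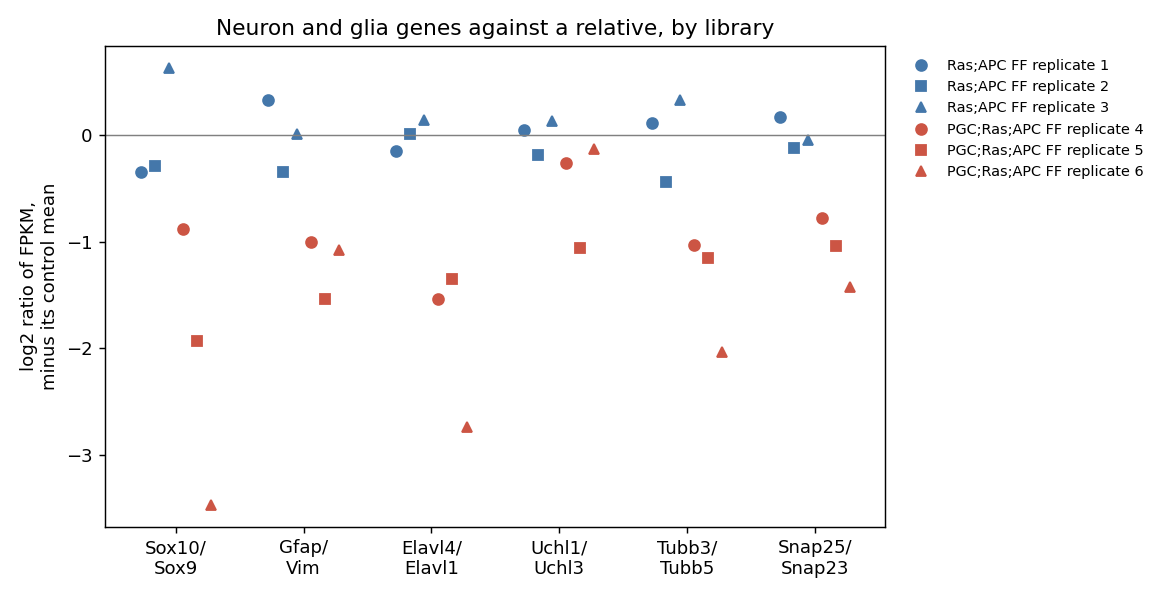
Log2 ratio of FPKM of each neuron or glia gene to a relative, minus its mean in controls, in each library (blue Ras;APC FF, red PGC;Ras;APC FF). In 5 of the 6 pairs all 3 red points lie below all 3 blue points; in the Uchl1 pair replicate 6 lies among the controls.

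S100b belongs to a family of small calcium-binding proteins, and its 2 most abundant relatives were, like S100b, highest in replicate 6. High values there were common. Over all genes with a control mean of at least 0.1 FPKM, the median was 114%, 111% and 142% of the control mean in replicates 4 to 6. S100a6 was at 375.7, 513.4 and 751.5 FPKM in the controls, against 1111, 846.8 and 2331 in replicates 4 to 6. S100a11 was at 261.3, 261.3 and 232.0 FPKM in the controls, against 724.6, 645.7 and 1698 in replicates 4 to 6. In both, replicates 4 and 5 were above every control, which was not so for S100b. Neither passed with all libraries (limma adjusted p = 0.0954 and 0.085), and S100a11 passed without replicate 6 (log2 change 1.44, adjusted p = 0.00509). The fit without replicate 6 called 8.11% of tested genes higher.

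Markers of other cell types of the gastric wall also differed between the groups. All 11 smooth muscle genes, against 5.65% of all rows, were lower in every PGC;Ras;APC FF library than in every control. The median of the list was 51.1%, 44.0% and 34% of the control mean in replicates 4 to 6. Snap25 was at 64.9%, 48.0% and 40.8%, Sox10 at 60.7%, 32.5% and 33.3%, Elavl4 at 49.5%, 52.6% and 32.5% and Gfap at 46.2%, 26.6% and 50.2% in the same libraries. Divided by the smooth muscle median, Snap25 was at 1.27, 1.09 and 1.2 times its control level in replicates 4 to 6 and Elavl4 at 0.969, 1.2 and 0.956, against 0.877 to 1.09 and 0.855 to 1.13 in controls. For Sox10 this ratio was 1.19, 0.739 and 0.981, against 0.735 to 1.27 in controls. Gfap was at 0.905, 0.604 and 1.48 on that ratio, against 0.801 to 1.40 in controls. Uchl1 was at 1.54, 1.23 and 2.85, against 0.961 to 1.02, and S100b at 1.36, 1.58 and 18.2, against 0.771 to 1.13. Ret was at 3.76, 1.67 and 5.08 on that ratio and Tubb3 at 1.77, 1.76 and 2.18, in each case above the controls. Control replicate 3 was the highest control for both the smooth muscle median, at 134% of the control mean, and for Uchl1, Snap25, Elavl4, S100b and Ret. On the log2(FPKM + 1) scale, which compresses low genes, Sox10 stood 0.586, 0.470 and 0.786 above the smooth muscle median in replicates 4 to 6, against -0.47 to 0.252 in controls. Snap25 stood 0.472, 0.375 and 0.536 above it on the same scale, against -0.267 to 0.121 in controls.

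Summed FPKM of the smooth muscle list was 2436 to 4319 in controls and 1107 to 1613 in PGC;Ras;APC FF, with Actg2 and Acta2, actins of smooth muscle, at 36.3% and 48.9% of their control means. No smooth muscle gene passed limma with all libraries (11 at an unadjusted p under 0.05), and 9 of 11 passed without replicate 6. In that fit 0.961% of tested genes were called lower and 8.11% higher. The summed endocrine list, to which cells that also use Snap25 belong, was 3319 to 4096 FPKM among controls, against 933.0 to 3253 in PGC;Ras;APC FF. Its median was 89.1%, 80.4% and 28.3% of the control mean in replicates 4 to 6. Chga, Scg2, Scg3 and Scg5, proteins of secretory granules, were lower in every PGC;Ras;APC FF library than in every control, as were 5.65% of all rows. The other 9 endocrine genes overlapped. Scg2 was at 67.0%, 51.4% and 28.3% of its control mean, beside 64.9%, 48.0% and 40.8% for Snap25. Like Snap25, Scg2 did not pass with all libraries (limma adjusted p = 0.0857) but passed without replicate 6 (log2 change -0.61, limma adjusted p = 0.0472). That fit called 0.961% of tested genes lower. Ghrl, the hormone ghrelin, was at 2426, 2437 and 722.6 FPKM in replicates 4 to 6 and Sst, somatostatin, at 550.5, 545.2 and 120.4. Adipose genes summed to 88.7 to 122.9 FPKM among controls, against 31.9 to 69.7 in PGC;Ras;APC FF, where 2 of the 4 tested genes, Cfd and Adipoq, fell (limma adjusted p = 0.00908 and 0.0103). Adipoq reached the filter through the controls alone. Neither passed when any 1 of the 3 controls was left out. The part of muscle, endocrine cells and fat in the neuron and glia values was not tested.

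**Figure D4:**
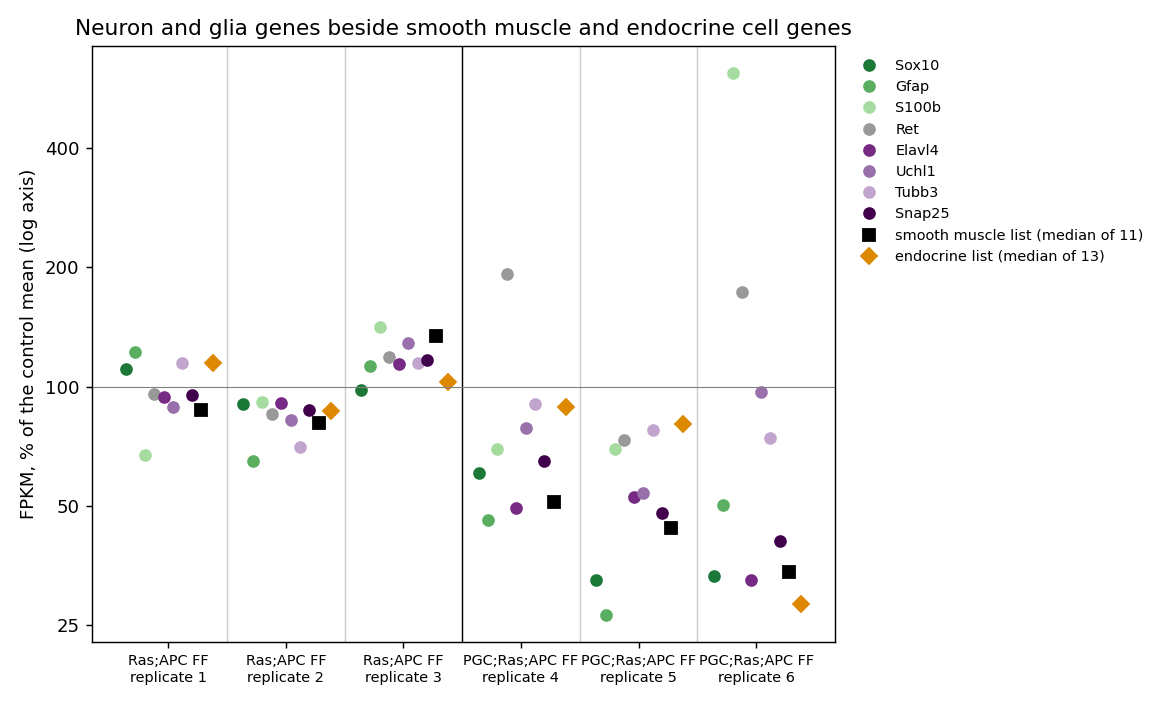
FPKM of each of the 8 genes as a percentage of its control mean (log axis) in each library, with the median of the smooth muscle and endocrine lists beside them. In replicates 4 to 6, Sox10, Gfap, Elavl4 and Snap25 lie at 26.6% to 64.9%, around the smooth muscle medians of 34% to 51.1%, and S100b reaches 618% in replicate 6.

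The tested genes nearest to the median profile of the 5 tested neuron and glia genes were Adarb1, an RNA-editing enzyme, Plekho1, Fnbp1, Svil, an actin-binding protein of muscle, and Zfp651. Their root mean square difference from that profile over the 6 libraries was 0.0569 to 0.0709 on the log2(FPKM + 1) scale. For single genes, the nearest was Mrgprf for Snap25 (0.0581), Gucy1b3, a subunit of the nitric oxide receptor, for Sox10 (0.0571) and Cdh11, a mesenchymal cadherin, for Ret (0.0928). The nearest to Uchl1 was Mmd (0.102) and to Tubb3 Tm4sf4 (0.0952).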

How the data were processed

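Total RNA of the stomach corpus of 6 mice was sequenced at BGI, per the labels' protocols. The values deposited by the authors are FPKM, given to 2 decimals. The submitters' processing notes name STAR, featureCounts and mm10. Tool versions, the gene annotation and how FPKM were derived: not given in the sources used here. Because FPKM are not counts, log2(FPKM + 1) was tested with limma 3.58.1 in R 4.3.3 (genotype as the only term, eBayes with trend, two-sided), for rows with at least 1 FPKM in at least 3 of 6 libraries. The fit had 4 residual degrees of freedom (7.72 including the prior). Benjamini-Hochberg adjustment ran over all 11857 tested rows with a threshold of 0.05. Fold changes on this scale understate those of low genes. The code of the test was run on simulated data in which all libraries had the same noise. That simulation held no outlying library and no shift of the median, so it does not cover these features of the data.

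Each library is a separate mouse. Depth is unknown, so no counting interval is given. Percentages of the control mean used untransformed FPKM, for list medians only genes with a control mean of at least 0.1. Genes with overlapping groups were counted on FPKM over all rows. The 8 genes and all lists were chosen with earlier results of these data known. Besides the 8, the text names for each list its called genes, otherwise its 2 tested genes of highest mean FPKM, direct partners and relatives, the nearest profiles, and genes marked as seen first. Also named after their values were seen were Art3, Cdh19, Foxd3, Gal, Gfra3, Lgi4, the adipose, melanocyte and granule genes, Prx, Sox2 and Vip. Coordinates are from GENCODE M21 (GRCm38). Alternatives were another pseudocount, no filter, 3 scalings, no trend and each library left out. Some genes of these lists are not reported here by name.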

Additional observations from a re-analysis of the deposited data

How the results depend on the processing

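No paired analysis was possible because the groups share no replicate numbers. The direction of the log2 change of Sox10, Ret, Uchl1, Tubb3 and Snap25 was the same under all 14 alternatives. Not all of these could alter it. Dropping the filter or the trend leaves the log2 change of a gene as it is. No filter with pseudocount 0.1 or with replicate 6 left out therefore repeats the change found with the filter. Snap25 passed only without replicate 6 and with the filter (log2 change -0.60), which made the count of these genes past the threshold on the lower side range from 0 to 1 over the left-out libraries; its log2 change ranged there from -0.82 to -0.60. The log2 difference of S100b turned to -0.21 without replicate 6 and ranged up to 0.79 (without replicate 4). Sox10, Gfap, Elavl4 and Snap25 were apart on the lower side under median-of-ratios scaling and the total leaving out the top 50 genes (not run for quantile normalization). Leaving out a library could not undo their gap. Uchl1 or Tubb3 was added under some scalings or with some libraries left out. Over all genes, 13 were called higher and 5 lower. This was 29 higher with pseudocount 0.1, 3 higher without a filter, and, in alternatives chosen after seeing the data, 28 higher with no filter and pseudocount 0.1, and 6 higher and 1 lower with no filter and replicate 6 left out. With other scalings, lower calls were 10 (median-of-ratios), 13 (quantile) and 10 (total leaving out the top 50 genes), beside 9, 10 and 12 higher. Over the left-out libraries, higher calls ranged from 0 to 962 and lower calls from 0 to 114, the most without replicate 6 and next without replicate 5 (540 and 46). The cause was not tested. Unknown depth limits genes under 1 FPKM.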

Other observations

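Of 10 genes of myelin and myelinating Schwann cells, 1 (Prx) was lower in every PGC;Ras;APC FF library than in every control and 1 (Ncmap) higher. Of all rows 5.65% were lower in this way and 31.9% higher. Of the 3 tested genes 0 passed limma over all genes, and 1 had an unadjusted p under 0.05, as did 35.4% of all tested genes. Mbp, myelin basic protein, was at 16.11, 18.11 and 18.81 FPKM in the controls, against 18.47, 18.96 and 16.36 in replicates 4 to 6, with overlapping groups. Ncmap was at 9.54 ± 1.25 and 17.6 ± 5.13 FPKM (SD, n = 3 each). Its log2 change was 0.79 ± 0.20 (limma adjusted p = 0.085), and it passed without replicate 6 (0.57, adjusted p = 0.0398), where 8.11% of tested genes were called higher.

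Cells that link nerve and muscle, the interstitial cells of Cajal and PDGFRA+ cells, had no common direction. Kit, the receptor of the interstitial cells, was at 10.55, 12.25 and 10.37 FPKM in the controls, against 9.89, 9.79 and 5.03 in replicates 4 to 6. Ano1, their chloride channel, which epithelium also expresses, was at 10.88, 12.06 and 7.81 and at 14.99, 14.66 and 20.04 FPKM. Of this list's 6 genes 2 were apart on the lower side and 2 on the higher side, against 5.65% and 31.9% of all rows. Mesothelial genes of the serosa, the outer lining of the wall, were low in all libraries, at summed levels of 0.65 to 4.90 FPKM among controls, against 3.93 to 9.93 in PGC;Ras;APC FF. Msln, mesothelin, was at 0.22, 0.41 and 1.08 FPKM in the controls, against 3.17, 1.15 and 5.80 in replicates 4 to 6. Replicate 5 was the lowest of these 3 but lay above every control. Upk3b was highest in replicate 4 at 3.78 FPKM, and control replicate 3, at 2.40, was above replicates 5 and 6.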
